A study of Mus musculus with 10 samples.

Results

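The genes described here are 10 targets and partners of ATF4, the transcription factor of the amino acid response: Atf4 itself, Ddit3, Cebpg, Atf5, Trib3, Chac1, Asns, Psat1, Phgdh and Slc7a11. They were taken by name, with earlier results of these data known. Every non-control probe whose transcript accession belongs to one of them was followed, which gave 16 probes. Of the 10 genes, 9 had a probe bright enough to be tested, among 22008 genes tested in all. Expression was measured on 10 Agilent 2-colour arrays in BCR-ABL+ mouse bone marrow colonies. BCR-ABL is a fusion tyrosine kinase that drives chronic myeloid leukaemia and some acute lymphoblastic leukaemias. The tested samples were 4 Cdk6-K43M samples, whose CDK6 protein carries the K43M change that removes kinase activity, and 4 Cdk6-/- samples, which lack CDK6. Each was labelled with Cy5 and hybridised against 1 pool of RNA from 4 Cdk6+/+ samples in Cy3. The 4 RNAs of each mutant genotype were also pooled and hybridised once more in Cy3, with the wild-type pool in Cy5. All 3 genotypes shared the rest of the treatment: marrow of donor mice aged 6 weeks was transduced with retrovirus, harvested after 24 h, and grown for 10 days in methylcellulose without growth factors, so that no cytokine was given and no other agent was added. RNA came from picked colonies, and the labels give no number of colonies or animals behind a sample. The samples are called biological replicates, yet separate animals are stated nowhere, so p-values here measure only the spread between samples, which may be technical.

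When amino acids run short, uncharged tRNAs activate the kinase GCN2, which phosphorylates the translation factor eIF2alpha. Stress in the endoplasmic reticulum does the same through the kinase PERK, haem shortage through HRI and double-stranded RNA through PKR. General translation then falls while the Atf4 messenger RNA is translated more, and ATF4 protein binds, often with a C/EBP partner, to C/EBP-ATF response elements of genes for amino acid synthesis, import and glutathione turnover. ATF4 is therefore set largely by translation, which a measurement of messenger RNA does not read.

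Promoter windows of all 10 genes ran from 250 bases before to 50 bases after each start. The response element, to which ATF4 protein binds, was searched there as TGATGNAA on both strands. It was present in the windows of 4 genes, Trib3, Chac1, Asns and Slc7a11. The background was 3.97% of all 32851 RefSeq promoter windows of 300 bases (1304 windows), or 4.51% of genes. The stretches that hold it are shown here in the direction of transcription, with the element in capitals (RefSeq, GRCm38.p6). Stretches before the starts of Psat1 and Cebpg, which passed the test below and hold no match in their windows, follow for comparison. That the letters are absent from a window says nothing of binding elsewhere.
Trib3: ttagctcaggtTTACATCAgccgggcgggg
Chac1: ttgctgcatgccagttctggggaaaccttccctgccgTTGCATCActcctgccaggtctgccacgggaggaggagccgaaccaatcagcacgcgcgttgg
Asns: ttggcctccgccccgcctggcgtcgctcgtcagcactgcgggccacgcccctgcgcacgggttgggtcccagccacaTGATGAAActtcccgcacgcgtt
Slc7a11: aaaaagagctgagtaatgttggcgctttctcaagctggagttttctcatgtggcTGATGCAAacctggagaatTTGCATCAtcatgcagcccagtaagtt
Psat1: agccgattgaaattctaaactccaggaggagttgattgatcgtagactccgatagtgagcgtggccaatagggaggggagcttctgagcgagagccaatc
Cebpg: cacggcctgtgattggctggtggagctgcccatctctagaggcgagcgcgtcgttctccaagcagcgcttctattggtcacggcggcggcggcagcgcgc

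The Trib3 stretch lies on the minus strand at chr2:152344028-152344057, where the element begins 14 bases after the start and reads TTACATCA, its reverse-strand form. In Chac1 (chr2:119351012-119351111, plus strand) the reverse-strand form TTGCATCA begins 193 bases before the start. Asns (chr6:7693210-7693309, minus strand) holds the forward form TGATGAAA from 23 bases before the start. Slc7a11 (chr3:50443634-50443733, minus strand) holds a forward TGATGCAA from 66 bases and a reverse TTGCATCA from 47 bases before the start, and 23 of all windows had 2 or more matches. The Psat1 stretch is chr19:15925060-15925159 and the Cebpg stretch chr7:35056567-35056666, both on the minus strand.

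In the Cdk6-K43M samples 3 of the 9 tested genes rose against the wild-type pool, Trib3, Chac1 and Cebpg, and 1 fell, Psat1. In the Cdk6-/- samples none rose and 1 fell, again Psat1. Over all 22008 genes, 9.78% were called higher and 10.3% lower in Cdk6-K43M, and 3.39% higher and 3.85% lower in Cdk6-/-. Calls were made at an adjusted p under 0.05 (limma, Benjamini-Hochberg over all genes). The median fitted change of the 9 genes was 0.32 (log2) in Cdk6-K43M and -0.04 in Cdk6-/-, beside all-gene medians of -0.01 in Cdk6-K43M and 0.0014 in Cdk6-/-. At an unadjusted p under 0.05, 7 of the 9 genes were counted in Cdk6-K43M, beside 33.4% of all genes, and 4 in Cdk6-/-, beside 24.8% of all genes. Because the members were chosen with earlier results of these data known, their counts beside these shares describe the set and do not test it. Between the mutant genotypes no member passed, where 0.264% of all genes were called higher and 0.25% lower in Cdk6-K43M, and 3 members (Trib3, Chac1 and Asns) had an unadjusted p under 0.05, beside 14.1% of all genes. Both comparisons with wild type use the same pool, so their values are set side by side and not counted as separate evidence. The pool was treated as a single control sample whose own spread is unmeasured, and the arrays with exchanged dyes measure RNA of the same samples again.

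Among the members Trib3 and Chac1 had the largest changes in Cdk6-K43M. Trib3 encodes a pseudokinase that ATF4 and CHOP induce and that acts back on ATF4. Its log2 ratios to the wild-type pool were 1.01, 1.86, 1.65 and 1.85 in Cdk6-K43M replicates 1 to 4, and 0.63, 0.31, 0.68 and 0.34 in Cdk6-/- replicates 1 to 4. Replicate 1 was the lowest Cdk6-K43M sample, and it still lay above every Cdk6-/- sample, so the groups did not overlap. Trib3 was the only tested member without overlap, and the share of all genes without overlap was not counted. With the dyes exchanged the ratio was 1.52 in the Cdk6-K43M pool and 0.09 in the Cdk6-/- pool. The fitted Trib3 change was 1.51 (SE 0.134, adjusted p = 0.000139) in Cdk6-K43M, 2.85-fold, and 0.34 (SE 0.134, adjusted p = 0.151) in Cdk6-/-, where it did not pass. The difference between the mutants was 1.102 (SE 0.193, adjusted p = 0.0545), just short of the threshold. It passed in 3 of 17 alternative analyses, without Cdk6-K43M replicate 1 (1.30, adjusted p = 0.00821), with all 10 arrays fitted together (1.17, adjusted p = 0.00838) and with median centring in place of loess (1.27, adjusted p = 0.0223), and the highest adjusted p over the alternatives was 0.152. The fit of all 10 arrays counts the pools with exchanged dyes as further samples, although they hold RNA of the same samples again.

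Chac1 encodes an enzyme that breaks down glutathione and is a target of the ATF4 and CHOP pathway. Its log2 ratios were 0.84, 0.91, 1.57 and 1.24 in the Cdk6-K43M samples, and 0.92, 0.39, 0.24 and 0.02 in the Cdk6-/- samples. The groups overlapped through Cdk6-/- replicate 1, which lay above 2 Cdk6-K43M samples. The pools with exchanged dyes gave 1.12 for Cdk6-K43M and 0.51 for Cdk6-/-. The fitted change was 1.15 (SE 0.147, adjusted p = 0.000861) in Cdk6-K43M, 2.22-fold, and 0.43 (SE 0.147, adjusted p = 0.107) in Cdk6-/-. The difference between the mutants, 0.75 (SE 0.217, adjusted p = 0.201), did not pass. Trib3 and Chac1 both had positive ratios on all 10 arrays, and their rise in Cdk6-K43M held in all 17 alternative analyses, with changes of 1.46 to 1.72 for Trib3 and 1.06 to 1.55 for Chac1.

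**Figure D1:**
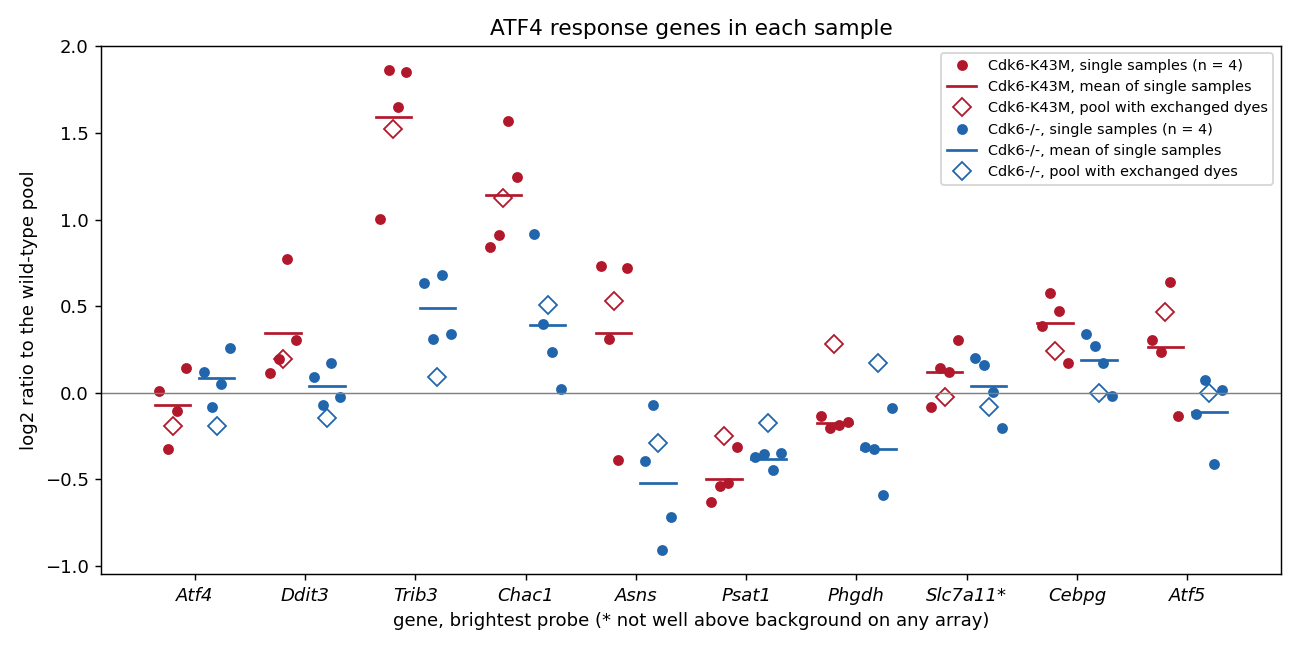
Log2 ratio of each gene to the wild-type pool (vertical axis; 0 is the pool) for the brightest probe, with 4 Cdk6-K43M samples (red) left of 4 Cdk6-/- samples (blue), group means as lines and the pools with exchanged dyes as open diamonds. Trib3 in Cdk6-K43M lies between 1.01 and 1.86, above all Cdk6-/- samples (0.31 to 0.68), Chac1 overlaps at its lower end, and Slc7a11 was not well above background.

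Among the transcription factors Cebpg was the 1 member called. It encodes C/EBP gamma, a leucine zipper protein that pairs with ATF4. Its log2 ratios were 0.39, 0.58, 0.47 and 0.17 in Cdk6-K43M and 0.34, 0.27, 0.17 and -0.02 in Cdk6-/-. With exchanged dyes the Cdk6-K43M pool had 0.24 and the Cdk6-/- pool -0.0004. The fitted change was 0.32 (SE 0.0751, adjusted p = 0.0156) in Cdk6-K43M, 1.25-fold, and 0.10 (SE 0.0751, adjusted p = 0.445) in Cdk6-/-. Ratios of the 2 groups overlapped, and they differed by 0.21 (SE 0.112, adjusted p = 0.431), short of the threshold. The second Cebpg probe gave 0.36 (adjusted p = 0.00519) in Cdk6-K43M and 0.04 in Cdk6-/-. When standard errors were widened for the unmeasured spread of the pool, the Cdk6-K43M change no longer passed (adjusted p = 0.116).

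Atf4 ratios lay on both sides of 0, at 0.01, -0.33, -0.10 and 0.14 in Cdk6-K43M, and 0.12, -0.08, 0.05 and 0.26 in Cdk6-/-. The fitted Atf4 changes were -0.15 (SE 0.0795, adjusted p = 0.213) in Cdk6-K43M and -0.03 (SE 0.0795, adjusted p = 0.86) in Cdk6-/-, and neither passed. A second Atf4 probe gave 0.04 in Cdk6-K43M and 0.06 in Cdk6-/-. Ddit3 encodes CHOP, a factor of the same family that ATF4 induces under prolonged stress. Its ratios were 0.12, 0.20, 0.77 and 0.30 in Cdk6-K43M, all positive, and 0.09, -0.07, 0.17 and -0.03 in Cdk6-/-, with an overlap of the groups. The fitted Ddit3 changes of 0.27 (SE 0.0952, adjusted p = 0.0766) in Cdk6-K43M and -0.05 (SE 0.0952, adjusted p = 0.809) in Cdk6-/- missed the threshold. Atf5, a related factor under the same translational control, had ratios of 0.31, 0.24, 0.64 and -0.13 in Cdk6-K43M, and -0.12, 0.08, -0.41 and 0.02 in Cdk6-/-. Its fitted changes were 0.35 (SE 0.114, adjusted p = 0.0554) in Cdk6-K43M and -0.04 (SE 0.114, adjusted p = 0.862) in Cdk6-/-. Cdk6-K43M replicate 4 was the low sample, and without it the Atf5 change was 0.43 (adjusted p = 0.0139). The second Atf5 probe passed in Cdk6-K43M with 0.46 (SE 0.117, adjusted p = 0.0203).

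The enzymes of amino acid synthesis had no common direction. Psat1, which catalyses the second step of serine synthesis, fell. Its log2 ratios were -0.63, -0.54, -0.52 and -0.31 in Cdk6-K43M and -0.37, -0.36, -0.44 and -0.35 in Cdk6-/-, and with exchanged dyes the Cdk6-K43M pool gave -0.25 and the Cdk6-/- pool -0.17. Every array was below 0, and the 2 genotypes overlapped. The fitted change was -0.38 (SE 0.055, adjusted p = 0.00151) in Cdk6-K43M and -0.27 (SE 0.055, adjusted p = 0.0212) in Cdk6-/-, with a difference of -0.12 (SE 0.0824, adjusted p = 0.55). A second Psat1 probe also fell, by 0.33 (adjusted p = 0.00552) in Cdk6-K43M and by 0.28 (adjusted p = 0.0312) in Cdk6-/-. With median centring the Psat1 changes were -0.13 (adjusted p = 0.209) in Cdk6-K43M and -0.23 (adjusted p = 0.102) in Cdk6-/-, and neither passed. The Cdk6-/- call was also lost without Cdk6-/- replicate 1 (adjusted p = 0.0567), with slide as a block (adjusted p = 0.0694) and with widened standard errors (adjusted p = 0.199).

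Phgdh, the enzyme of the first step of serine synthesis, had ratios of -0.13, -0.21, -0.18 and -0.17 in Cdk6-K43M and -0.31, -0.32, -0.59 and -0.09 in Cdk6-/-. With exchanged dyes the signs turned, to 0.28 in the Cdk6-K43M pool and 0.17 in the Cdk6-/- pool, so the sign followed the dye. The fit, which has a dye term, gave 0.06 (SE 0.0692, adjusted p = 0.583) in Cdk6-K43M and -0.08 (SE 0.0692, adjusted p = 0.496) in Cdk6-/-. Asns, which makes asparagine and is a classical target of the amino acid response, had ratios of mostly opposite sign in the 2 genotypes. They were 0.73, 0.31, -0.39 and 0.72 in Cdk6-K43M, against -0.40, -0.07, -0.91 and -0.72 in Cdk6-/-, and with exchanged dyes 0.53 in the Cdk6-K43M pool against -0.29 in the Cdk6-/- pool. All 5 Cdk6-/- arrays were below 0 and 4 of 5 Cdk6-K43M arrays above it, with Cdk6-K43M replicate 3 the exception. The fitted changes were 0.44 (SE 0.183, adjusted p = 0.118) in Cdk6-K43M and -0.41 (SE 0.183, adjusted p = 0.196) in Cdk6-/-, and the difference between the mutants 0.87 (SE 0.271, adjusted p = 0.225). None passed. Without Cdk6-K43M replicate 3 the Cdk6-K43M change was 0.60 (adjusted p = 0.0203), and the second Asns probe gave 0.49 (adjusted p = 0.0572) in Cdk6-K43M and -0.29 (adjusted p = 0.302) in Cdk6-/-.

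Slc7a11 encodes the cystine importer xCT. Both of its probes were not well above background in either channel of any array, so it was not tested. Ratios of the brighter probe were -0.08, 0.14, 0.12 and 0.30 in Cdk6-K43M and 0.20, 0.16, 0.01 and -0.20 in Cdk6-/-, at the level where background dominates. The other 14 probes were well above background in every channel.

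**Figure D2:**
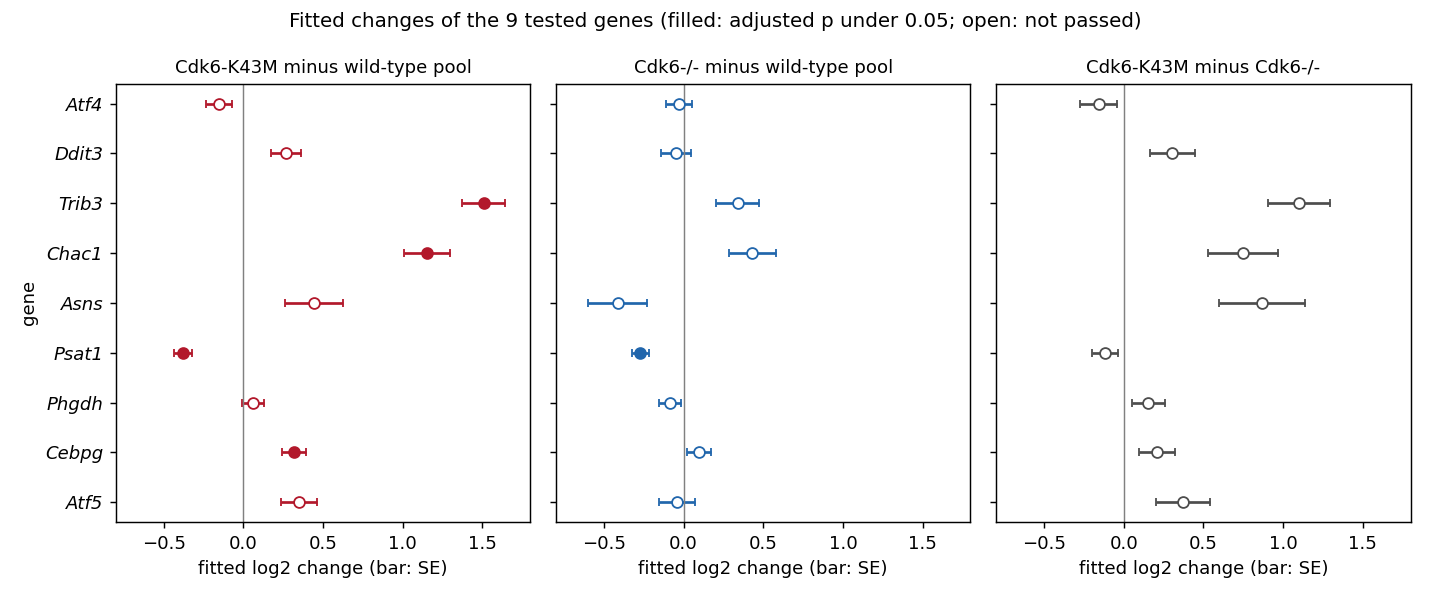
Fitted log2 changes of the 9 tested genes with their SE (horizontal bars) for Cdk6-K43M minus the wild-type pool, Cdk6-/- minus the pool and Cdk6-K43M minus Cdk6-/-, from left to right. Filled points have an adjusted p under 0.05: Trib3, Chac1, Cebpg and Psat1 in Cdk6-K43M, Psat1 in Cdk6-/-, and none between the mutants.

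Where a gene had 2 probes, they gave the same sign for each gene called. The means over the single samples were 0.40 ± 0.17 and 0.38 ± 0.14 for Cebpg, 0.26 ± 0.32 and 0.47 ± 0.35 for Atf5, 0.34 ± 0.53 and 0.36 ± 0.50 for Asns, and -0.50 ± 0.13 and -0.23 ± 0.14 for Psat1 in Cdk6-K43M (SD, n = 4). In Cdk6-/- they were 0.19 ± 0.16 and 0.13 ± 0.06 for Cebpg, -0.11 ± 0.22 and -0.01 ± 0.19 for Atf5, -0.52 ± 0.37 and -0.43 ± 0.26 for Asns, and -0.38 ± 0.04 and -0.16 ± 0.11 for Psat1 (SD, n = 4). In these single samples the dimmer Psat1 probe was closer to 0 in both genotypes. With exchanged dyes it was further from 0, at -0.41 in the Cdk6-K43M pool and -0.43 in the Cdk6-/- pool.

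**Figure D3:**
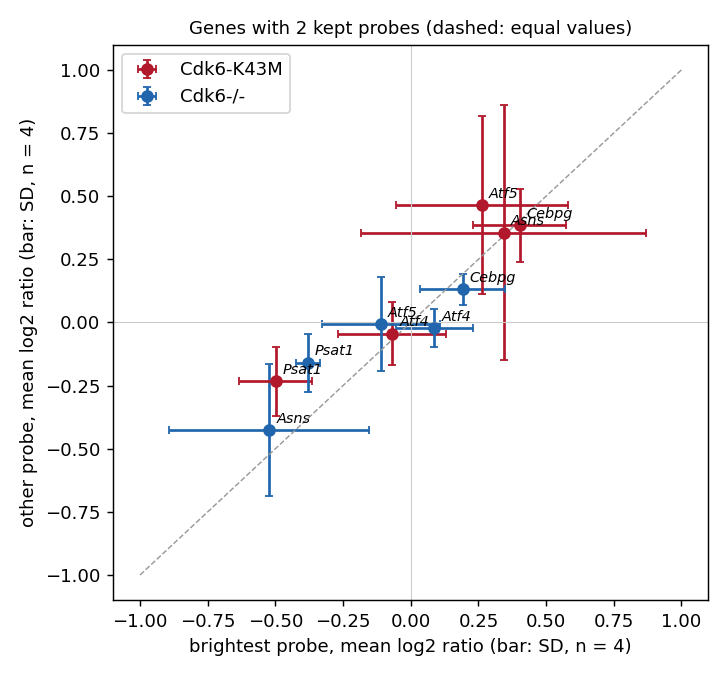
Mean log2 ratio of the brightest probe (horizontal) and of the other probe (vertical) for the 5 genes with 2 kept probes, Cdk6-K43M in red and Cdk6-/- in blue, bars SD of 4 samples. Points near the dashed line of equal values agree between probes. Asns lies on opposite sides of 0 in the genotypes, and Psat1 lies below 0 in both.

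The 9 genes averaged 0.29, 0.34, 0.43 and 0.42 in the Cdk6-K43M samples and 0.10, 0.02, -0.12 and -0.06 in the Cdk6-/- samples, and with exchanged dyes 0.44 in the Cdk6-K43M pool and -0.0032 in the Cdk6-/- pool. All Cdk6-K43M means lay above all Cdk6-/- means, and how often other sets of genes separate in this way was not counted. Trib3 was the highest and Psat1 the lowest member on all 5 Cdk6-K43M arrays. On the Cdk6-/- arrays Asns was the lowest on 4 of 5, and Chac1 or Trib3 the highest. Slides were examined as batches, since each of the 3 holds both mutant genotypes. The Trib3 difference of Cdk6-K43M over Cdk6-/- was 0.37, 1.35 and 1.34 on slides 1, 2 and 3. For Chac1 it was -0.08, 0.95 and 1.18, and for Asns 1.13, 1.33 and -0.32. Slides 1 and 3 each hold 1 single sample of each mutant genotype, and Trib3 and Chac1 differed least on slide 1. With slide as a block the Trib3 and Chac1 changes in Cdk6-K43M were 1.55 (adjusted p = 0.000975) and 1.13 (adjusted p = 0.00393), Cebpg was 0.30 (adjusted p = 0.0356) and Psat1 -0.37 (adjusted p = 0.00711), so these calls held, and between the mutants Trib3 had an adjusted p of 0.124.

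The genes whose pattern over the 8 single samples was most like that of the members' mean were Pgam5 (Pearson's r 0.976), Tmtc3 (0.976), Prickle3 (0.975), Trmt10b (0.969) and Dtd2 (0.965), among 12947 named genes ranked. This is a description over 8 arrays that share the wild-type pool, in which the members' mean leans on Trib3 and Chac1. The Dtd2 ratios were 0.82, 1.13, 1.17 and 1.17 in Cdk6-K43M and 0.21, 0.19, 0.05 and 0.24 in Cdk6-/-. Of 130 ranked genes from the pathway lists and cell type marker lists described below, none was among the 10 nearest. With 10 places among 12947 ranked genes, this count says little about them.

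Related genes of the pathway were counted from 8 lists, which were also chosen with earlier results of these data known. Together 87 were tested, of which 23 were called in Cdk6-K43M, beside 20.1% of all genes, and 15 in Cdk6-/-, beside 7.24% of all genes. As background for each list, 9.78% of all genes were called higher and 10.3% lower in Cdk6-K43M. In Cdk6-/- these shares were 3.39% and 3.85%. Between the mutants limma called none, with 14 at an unadjusted p under 0.05, beside 14.1% of all genes.

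Among 12 of 16 other ATF4 and CHOP targets that could be tested, 1 rose and 1 fell in Cdk6-K43M, with a list median of -0.05. Ero1a, an oxidase of the endoplasmic reticulum that CHOP induces, rose by 0.57 (SE 0.0856, adjusted p = 0.00184). Its ratios were 0.29, 0.53, 0.68 and 0.61 in Cdk6-K43M and -0.02, 0.32, -0.21 and 0.02 in Cdk6-/-. Sesn2, a stress-induced inhibitor of mTORC1 signalling, fell by 0.46 (SE 0.0692, adjusted p = 0.00182). In Cdk6-/- the list median was -0.11, and Gdf15, a secreted stress factor, fell by 0.89 (SE 0.234, adjusted p = 0.0492); it was well above background in 2 of 4 Cdk6-/- samples, and that call was lost under 12 alternatives. Vldlr, Nupr1, Fgf21 and Stc2 were too dim to test.

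The 4 lists of amino acid supply held calls in both directions. Of their 38 tested genes 8 were called in Cdk6-K43M (21.1%, beside 20.1% of all genes) and 6 in Cdk6-/- (15.8%, beside 7.24% of all genes). Of 9 transporters, Slc38a2, a neutral amino acid transporter, had a fitted rise of 0.23 in both Cdk6-K43M (SE 0.0498, adjusted p = 0.0108) and Cdk6-/- (SE 0.0498, adjusted p = 0.0258), while the pools with exchanged dyes read 0.51 for Cdk6-K43M and 0.57 for Cdk6-/-. In the single samples its ratios were -0.07, -0.19, -0.07 and 0.02 in Cdk6-K43M and -0.13, -0.10, 0.02 and -0.14 in Cdk6-/-. Slc7a5, the leucine importer, fell by 0.23 in Cdk6-K43M (adjusted p = 0.0349). Of 7 serine, glycine and one-carbon enzymes, limma called 0 in either genotype, with 2 in Cdk6-K43M and 3 in Cdk6-/- at an unadjusted p under 0.05. Among the other amino acid and glutathione enzymes, Got1 fell by 0.17 in Cdk6-K43M (adjusted p = 0.0256), and in Cdk6-/- Gpt2 fell by 0.44 (adjusted p = 0.0124; above background in 2 of 4 samples) and Glul, glutamine synthetase, by 0.22 (adjusted p = 0.0368). Among 13 genes of the synthetase list, 1 rose and 3 fell in Cdk6-K43M and 2 fell in Cdk6-/-. Cars fell by 0.33 in Cdk6-K43M and by 0.32 in Cdk6-/-, Gars by 0.26 in Cdk6-K43M and by 0.37 in Cdk6-/-, Aars by 0.28 in Cdk6-K43M, and the transfer RNA exporter Xpot rose by 0.23 in Cdk6-K43M.

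Upstream of ATF4, calls on the list of eIF2alpha kinases, eIF2 and eIF2B were about as frequent as over all genes in each genotype. Eif2ak3, which encodes PERK, fell by 0.81 (SE 0.143, adjusted p = 0.00396) in Cdk6-K43M, where its ratios were -0.83, -0.65, -0.15 and -0.80, and was -0.47 (adjusted p = 0.075) in Cdk6-/-. Eif2ak4, which encodes GCN2, fell by 0.28 (adjusted p = 0.0108) in Cdk6-K43M and was -0.17 in Cdk6-/-. Eif2ak2, which encodes PKR, rose by 0.66 (SE 0.126, adjusted p = 0.017) in Cdk6-/- and was -0.01 in Cdk6-K43M. Eif2b3, a subunit of the eIF2 exchange factor, rose by 0.46 (adjusted p = 0.035) in Cdk6-K43M. Of 15 genes on this list 1 rose and 2 fell in Cdk6-K43M, beside 20.1% of all genes called. In Cdk6-/- 1 rose, beside 7.24% of all genes called. No difference between the mutants passed.

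The ATF6 and XBP1 branch, which raises chaperones of the endoplasmic reticulum, had calls in the lower direction alone. Of 13 genes, 7 fell and none rose in Cdk6-K43M (median -0.41), and 6 fell and none rose in Cdk6-/- (median -0.32). Over all genes 10.3% were called lower in Cdk6-K43M and 3.85% in Cdk6-/-. Hsp90b1, a chaperone, fell by 0.65 (adjusted p = 0.000902) in Cdk6-K43M and by 0.59 (adjusted p = 0.00472) in Cdk6-/-, and Atf6 itself by 0.46 in Cdk6-K43M and by 0.33 in Cdk6-/-. The further genes that fell in both were Creld2, Pdia4, Sdf2l1 and the chaperone Hspa5, and Calr fell in Cdk6-K43M. Of 9 NRF2 targets, which respond to oxidative stress, 3 rose in Cdk6-K43M, Txnrd1 by 0.32, Nfe2l2 by 0.28 and Gclm by 0.23, and 1 fell in Cdk6-/-, Gsr by 0.41. Of the calls in Cdk6-K43M, those of Ero1a, Sesn2, Eif2ak3, Atf6, Hsp90b1 and Pdia4 held in all 17 alternative analyses, while Got1 held in 11, Eif2b3 and Nfe2l2 in 10 and Slc7a5 in 8. In Cdk6-/- Slc38a2 held in 11, Cars in 10 and Glul in 7. With standard errors widened for the pool, Slc38a2, Cars, Glul and Gdf15 did not pass in Cdk6-/-. Neither did Hsp90b1 (adjusted p = 0.0698), Atf6 (0.096), Gars (0.107), Gsr (0.109), Creld2 (0.119), Gpt2 (0.142), Pdia4 (0.145) and Eif2ak2 (0.174). In Cdk6-K43M the widening also removed the calls of Aars, Gars, Cars, Xpot, Eif2ak4, Txnrd1 and Gclm. The Cdk6-K43M calls of Slc38a2, Slc7a5, Got1, Eif2b3 and Nfe2l2 were lost under it as well.

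**Figure D4:**
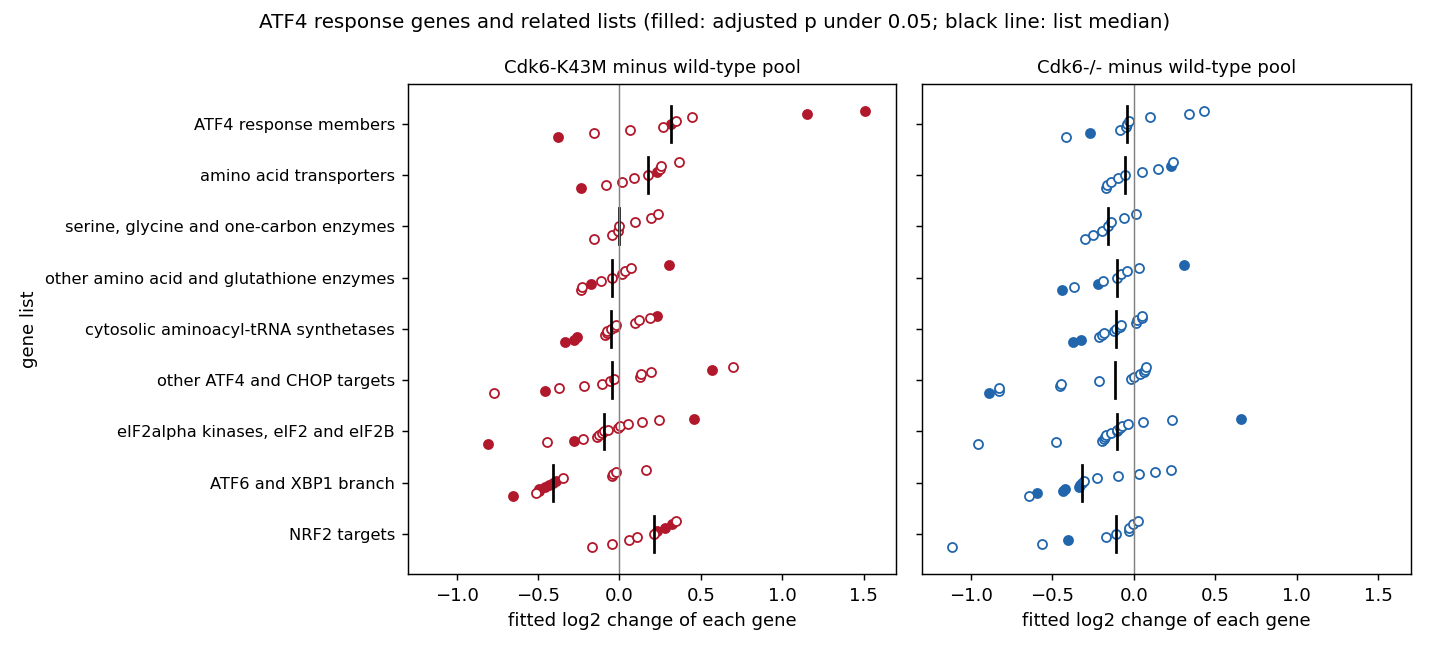
Fitted log2 change of every tested gene (points; horizontal axis) in the 9 lists for Cdk6-K43M (left) and Cdk6-/- (right) against the wild-type pool; filled points have an adjusted p under 0.05 and black lines are list medians. The median of the ATF4 response genes is 0.32 in Cdk6-K43M and -0.04 in Cdk6-/-, and that of the ATF6 and XBP1 branch -0.41 in Cdk6-K43M and -0.32 in Cdk6-/-.

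Cell makeup and array-wide values bear on these ratios, since in bulk colonies fewer cells of a type and less RNA per cell cannot be told apart. Granulocyte, monocyte and macrophage markers averaged -1.09, -0.76, -1.08 and 0.17 in the Cdk6-K43M samples and -0.92 to -1.23 in the Cdk6-/- samples, so Cdk6-K43M replicate 4 stood apart. Of 13 tested, 5 fell in each genotype, beside 10.3% of all genes in Cdk6-K43M and 3.85% in Cdk6-/-. Ngp, Camp, Ltf and Mpo were not well above background in any mutant sample. Ltf was not tested, and Ngp, Camp and Mpo entered the test through the wild-type channel alone. A call for these genes could hardly be other than lower, so the shares of all genes are no like background for this count. B-lineage markers were well above background for 14 of 14 genes in all groups, with means of 0.02 to 0.35 in Cdk6-K43M and 0.08 to 0.40 in Cdk6-/-. These means join changes of both signs. In Cdk6-K43M 5 of the 14 rose and 3 fell, beside 9.78% of all genes called higher and 10.3% lower. In Cdk6-/- 1 rose, beside 3.39% of all genes. T and NK cell markers averaged -0.03 to 0.41 in Cdk6-K43M and -0.16 to 0.28 in Cdk6-/- samples. These means too join large changes of both signs. Fitted changes of the 7 tested ran from -1.32 to 2.79 in Cdk6-K43M, where 2 rose and 1 fell. In Cdk6-/- they ran from -1.19 to 2.14, and 2 rose and 2 fell, beside the shares of all genes just given and 3.85% lower. Between the mutants 1 was called higher, beside 0.264% of all genes. For erythroid and megakaryocyte markers the means were -0.30 to 0.23 in Cdk6-K43M and -0.39 to 0.21 in Cdk6-/-, and for stem cell, mast cell and stromal markers -0.44 to 0.52 in Cdk6-K43M and -0.31 to 0.03 in Cdk6-/-. Of 5 erythroid and megakaryocyte markers tested, 1 rose in Cdk6-/- and none was called in Cdk6-K43M. Of 5 stem cell, mast cell and stromal markers tested, 1 rose in Cdk6-K43M and 1 fell in Cdk6-/-. Their fitted changes ran from -0.41 to 1.60 in Cdk6-K43M. The NRF2 targets averaged 0.59 in Cdk6-K43M replicate 4 and -0.33 to 0.04 in the other 3. Without replicate 4 the Cdk6-K43M calls of Nfe2l2 (adjusted p = 0.0614) and Gclm (adjusted p = 0.0516) were lost, and Txnrd1 still passed. Without that replicate the changes of Trib3 (1.46, adjusted p = 0.000411), Chac1 (1.13, adjusted p = 0.00218), Cebpg (0.37, adjusted p = 0.00726) and Psat1 (-0.42, adjusted p = 0.000906) held. The part of myeloid cells in the remaining values was not tested.

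Median centring in place of loess moved the median of all genes in Cdk6-K43M by 0.12, and it raised the share of called genes that were higher to 87.9%, against 48.6% with loess. In Cdk6-/- the share was 63.5% against 46.8%, and between the mutants 65.9% against 51.3%. Under it 7 members rose in Cdk6-K43M and none fell, beside 5593 higher and 773 lower among all 22008 genes. Trib3 rose by 1.72 and Chac1 by 1.30. Atf4 was 0.16 (adjusted p = 0.223) there and -0.15 with loess, so its sign depends on the scaling. Cdk6 itself had a fitted change of 0.35 (SE 0.0988, adjusted p = 0.031) in Cdk6-K43M and -0.41 (SE 0.0988, adjusted p = 0.0368) in Cdk6-/-. The position of its probe relative to the deleted part is unknown here, so this probe does not check the deletion. Mutant channels had 46.9 to 49.9% of their probes well above background and wild-type channels 45.8 to 50%, without saturated spots.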

How the data were processed

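Per the file headers, scans were quantified by Agilent Feature Extraction (version 11.5.1.1) into spot and local background intensity values, and the probes refer to mm9; Agilent's processed intensities are in the same files. A table of loess normalized log2 values was deposited by the authors, with no statement of its background correction. Median spot intensities were corrected by normexp (offset 50) and normalized by loess within each array with limma 3.58.1 in R 4.3.3, non-uniform spots (195) were set to missing, spots of a probe were averaged, and 68 text cells of the deposited table were read as missing. Swapped arrays entered with reversed sign. Transcript accessions gave symbols to 58.3% of 56605 probes through RefSeq (GRCm38.p6). Probes had to be well above background in 3 or more of the 4 single samples of a genotype, or in 5 or more of the 10 wild-type channels, which left 28177, and the brightest stood for its gene.

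Comparisons with the wild-type pool used limma on all 10 arrays with a term for the dye (degrees of freedom 7 residual, 2.94 prior), and the mutants were compared on the 8 single-sample arrays (6 and 2.86). Benjamini-Hochberg adjustment ran over all 22008 genes tested. The number of arrays limits the precision. The members and lists were chosen with earlier results of these data known. Named genes are all 10 members, up to 4 called genes per list and comparison with the smallest p (any others, named to complete a count, were picked once their values were known), and the 5 genes most like the members' mean. A gene that this rule names is not reported here. Alternatives covered background correction, Agilent's processed signals, median centring, the deposited table, no filter, the mean of probes, slide as a block, no swapped arrays, widened standard errors, the replicate block and leaving out each sample.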

Additional observations from a re-analysis of the deposited data

How the results depend on the processing

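The labels do not say whether samples of equal replicate number are paired. Deviations of same-numbered samples correlated with r of 0.084, -0.066, 0.228 and 0.139, which cannot settle whether they share an animal or a day. With the replicate number as a block the mutants differed in 37 genes and 0 members, against 113 genes and 0 members without it. Genes called in Cdk6-K43M against the pool numbered 4430, and 6366 with median centring and 1270 with widened standard errors (leaving out 1 sample, 3594 to 4503). In Cdk6-/- 1593 were called, and 802 with median centring, 638 with slide as a block, 3293 without swapped arrays and 130 with widened standard errors (leaving out 1 sample, 612 to 1931). Between the mutants there were 73 with Agilent's processed signals, 33 with slide as a block and 559 with all 10 arrays (leaving out 1 sample, 36 to 77). Members called in Cdk6-K43M were 4, and 7 with median centring, under which the calls over all genes also increased (leaving out 1 sample, 4 to 5). In Cdk6-/- the 1 member became 0 with median centring, slide as a block or widened standard errors and 3 without swapped arrays (Trib3 at 0.49, adjusted p = 0.0433, Phgdh at -0.33 and Psat1), and 0 to 1 leaving out 1 sample. Between the mutants 1 member, Trib3, was called with median centring and with all 10 arrays, where the pools repeat RNA of the same samples, and 0 to 1 leaving out 1 sample.

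Signs turned for members that had not been called, for the Psat1 difference between the mutants (not called) and for the called changes of Slc38a2 (0.23 in each genotype) and, in Cdk6-K43M, of Got1 (-0.17) and Gars (-0.26), and the cause was not tested. With median centring Atf4 was 0.164 in Cdk6-K43M, 0.0362 in Cdk6-/- and 0.0659 between the mutants, Psat1 between the mutants was 0.06003, and in Cdk6-K43M Got1 was 0.0422 and Gars 0.0547. With the mean of all probes Atf4 in Cdk6-/- was 0.0168. Without swapped arrays Phgdh and Slc38a2 were -0.173 and -0.0777 in Cdk6-K43M, and Atf4, Ddit3 and Slc38a2 were 0.0876, 0.0422 and -0.0867 in Cdk6-/-. In Cdk6-/- Atf5 was 0.0212 with slide as a block, and leaving out 1 sample Atf4 ran over -0.0682 to 0.00321 (highest without Cdk6-/- replicate 2) and Atf5 over -0.082 to 0.0202 (highest without Cdk6-/- replicate 3). Both probes of Slc7a11 lie too near background to give a direction.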
